A study of Rattus norvegicus with 9 samples.

Results

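Ubiquitin ligases of the Trim, Rnf, Fbxo, Fbxl, Fbxw, Klhl and Asb families were followed in 4T1 cells, a mouse mammary carcinoma line, after treatment with molybdenum disulfide nanoparticles with or without near-infrared light. The members are all rows of the deposited expression table whose gene name starts with 1 of these 7 prefixes followed by a digit. This gave 32 of 2392 genes, of which 10 are Trim, 6 Rnf, 4 Fbxo, 4 Fbxl, 5 Klhl and 3 Asb genes, while the prefix Fbxw matched 0 rows. Polyadenylated RNA was sequenced in 9 libraries from 3 groups. MoS2_NIR cells received the particles and near-infrared light and carry the label photothermal therapy (n = 3), MoS2 cells received the particles without light (n = 3), and Control cells were kept in high-glucose medium with serum (n = 3). No group received light without particles, so light was measured only in cells that held them. Particle dose, light power, exposure time and temperature are not given in the sources used here. All groups are the same cultured line. The labels do not say whether replicate libraries stem from independent cultures, so a p-value here measures only the spread between these libraries, which may be technical.

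Ubiquitin is attached to proteins by a chain of an activating enzyme, a conjugating enzyme and a ligase, and the ligase chooses the target. Most Trim and Rnf proteins carry a RING domain that binds the conjugating enzyme directly. F-box proteins (Fbxo, and Fbxl with leucine-rich repeats), Klhl proteins and Asb proteins are instead the substrate receptors of cullin complexes: F-box proteins dock on CUL1 through SKP1, Klhl proteins on CUL3 through a BTB domain, and Asb proteins on CUL5 through a SOCS box. Proteins marked with ubiquitin are often sent to the proteasome, and cells depend on this route to clear proteins unfolded by heat.

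The table gives each gene as scores standardized over the 9 libraries, and expression values were recovered from the scores for 2389 genes, all 32 members among them. Below, the values as deposited are these recovered values without further scaling. Neither the unit of these values nor the sequencing depth is known, so no counting interval is given and levels are not compared between genes. The median value over all recovered genes was 3.19 to 3.26 in MoS2_NIR, 1.97 to 2.07 in MoS2 and 1.63 to 1.98 in Control libraries. Within groups, pairs of libraries correlated across genes with r of 0.975 to 0.984 (Pearson). Control replicate 3 had the lowest median, 1.63, and was the lowest Control library in 20 of the 32 members. The table is a selection by a rule that is not stated: in 2096 genes, and in 29 of the 32 members, the highest group mean was at least 2 times the lowest. Of 9 markers of 4T1 epithelium, Lcn2 and Spp1 were in the table, with a summed value of 622 to 691 in MoS2_NIR, 1180 to 1220 in MoS2 and 1580 to 1710 in Control. Of 5 fibroblast markers, Postn and Col1a1 were in the table, with a summed value of 0.67 to 1.01 in MoS2_NIR, 2.44 to 3.5 in MoS2 and 4.4 to 5.26 in Control, and 0 of 7 leukocyte and 0 of 3 endothelial markers were. The part of these differences in the results was not tested. The remaining markers were absent from this selected table, which says nothing about their expression. In a bulk library a smaller share of cells in some state and less RNA per cell cannot be told apart.

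After particles and light most of the ligase genes stood above their Control level. In 25 of the 32 genes all 3 MoS2_NIR values lay above all 3 Control values, and in 6 genes, among them Trim30a, Trim63, Fbxo31, Klhl30 and Klhl33, they lay below. Over all 2389 recovered genes the same held for 59.4% and 35.2%. MoS2_NIR lay above MoS2 without overlap in 25 members and below it in 5 (57.3% and 23.7% of recovered genes), and MoS2 lay above Control in 14 and below it in 2 (28.6% and 21.3%). Group means ran in the order MoS2_NIR, MoS2, Control from high to low in 23 members and in the reverse order in the same 6. In Asb1, Fbxl22 and Trim2 the MoS2 mean was the lowest of the 3. Among the members tested below, 13 had all 3 groups apart with MoS2_NIR highest and Control lowest, and 2, Klhl30 among them, in the opposite order, beside 35.2% and 14.9% of all tested genes.

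**Figure D1:**
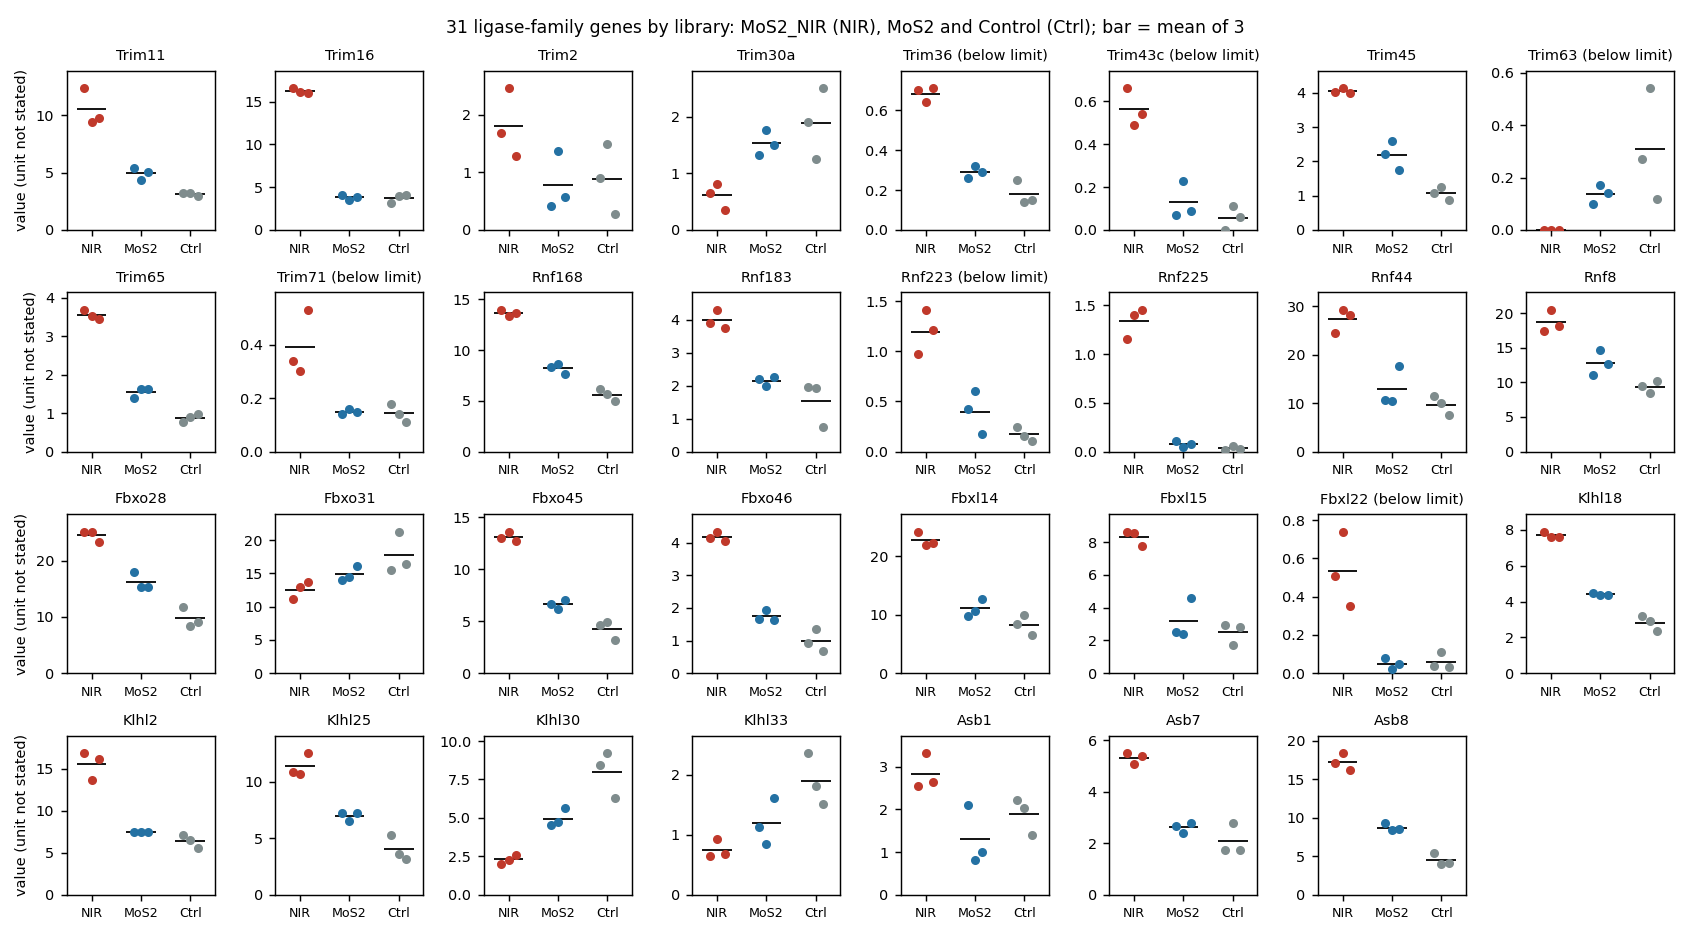
Expression values of 31 ligase-family genes in each of 9 libraries; every panel has its own linear axis from 0 (unit not stated), with MoS2_NIR on the left, then MoS2 and Control, 1 point per library and a bar at the mean of 3. In 25 panels the MoS2_NIR points lie above all Control points, and in 5 panels they lie under them; panels marked below limit were not tested.

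For the tests, 26 of the 32 members reached a value of 1 in 3 libraries or more, a limit that 1748 genes of the table passed. Log2 of (value + 1) was fitted with limma in 1 fit of all 9 libraries, and a gene was called at a Benjamini-Hochberg adjusted p under 0.05 over the 1748 genes. A limit of this kind admits genes through the group in which they are high. The member counts below therefore describe the tested members and support nothing further. Rnf225 passed through its MoS2_NIR values alone. Trim30a and Klhl33 reached a value of 1 only in MoS2 and Control, and Trim65 only in MoS2_NIR and MoS2. Their calls against the group that did not reach it are likewise a description. A pseudocount of 1 understates the change of genes with low values. Of the 26 tested members 19 were higher and 5 lower in MoS2_NIR than in Control, or 73.1% and 19.2%, beside 63.5% and 33.9% of all tested genes. Against MoS2, 21 members were higher and 2 lower in MoS2_NIR (80.8% and 7.69%, beside 61.7% and 25.4%). In MoS2 against Control 12 were higher and 2 lower (46.2% and 7.69%, beside 30.1% and 16.8%). The median log2 fold change of the tested members and of all tested genes was 1.18 and 1.01 for MoS2_NIR against Control, 0.73 and 0.68 for MoS2_NIR against MoS2, and 0.36 and 0.17 for MoS2 against Control. The comparisons share libraries, so their counts are not independent of each other.

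The Trim genes, whose proteins join a RING, B-boxes and a coiled coil, held the member with the largest log2 fold change against MoS2. Trim16 encodes a protein without a classical RING that takes part in the autophagy of damaged lysosomes and in the NRF2-linked response to misfolded proteins. Its values were 16.53, 16.1 and 15.95 in MoS2_NIR, 4.08, 3.49 and 3.88 in MoS2, and 3.18, 3.91 and 4.03 in Control. The irradiated libraries lay far above the rest, and MoS2 and Control overlapped. Trim16 rose to 4.37 times its Control mean (1.87 on the log2 scale, SE 0.11, limma adjusted p = 1.32e-07) and to 4.24 times its MoS2 mean (1.84, SE 0.11, limma adjusted p = 8.35e-07). For MoS2 against Control its log2 fold change was 0.036 (SE 0.11, limma adjusted p = 0.788).

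Trim11, Trim45 and Trim65 rose already with particles and again with light in the values as deposited. Trim11, a ligase linked in human cells to the clearance of misfolded proteins, was at 12.32, 9.44 and 9.73 in MoS2_NIR, 5.39, 4.31 and 5.08 in MoS2, and 3.22, 3.21 and 2.97 in Control. Trim45, reported in human cells to restrain MAP kinase signalling, was at 4.03, 4.13 and 4.0 in MoS2_NIR, 2.23, 2.61 and 1.76 in MoS2, and 1.09, 1.26 and 0.86 in Control. Trim65, which ubiquitinates the RNA sensor MDA5, was at 3.68, 3.52 and 3.45 in MoS2_NIR, 1.4, 1.62 and 1.63 in MoS2, and 0.77, 0.9 and 0.98 in Control. In each of these genes the 3 groups were separate, with no overlap between neighbours. Their log2 fold changes were 1.47, 1.29 and 1.27 for MoS2_NIR against Control (limma adjusted p = 1.05e-06, 3.16e-06 and 1e-06). For MoS2_NIR against MoS2 they were 0.95, 0.67 and 0.84 (limma adjusted p = 5.11e-05, 0.000693 and 4.46e-05), and for MoS2 against Control 0.52, 0.62 and 0.44 (limma adjusted p = 0.00836, 0.00434 and 0.00878).

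Trim30a went the other way. It is a mouse gene induced by interferon, whose protein restrains NF-kB signalling by removing the adaptors TAB2 and TAB3, and it has close copies between which reads may be split. It was at 0.66, 0.82 and 0.35 in MoS2_NIR, 1.32, 1.77 and 1.51 in MoS2, and 1.9, 1.25 and 2.5 in Control. The irradiated libraries were below all others, while MoS2 lay within the Control range. Trim30a fell to 0.324 times its Control mean (-0.83 on the log2 scale, SE 0.17, limma adjusted p = 0.000792) and to 0.398 times its MoS2 mean (-0.66, limma adjusted p = 0.00449), and for MoS2 against Control the value was -0.17 (limma adjusted p = 0.432). Trim2, a ligase for the neurofilament light chain in mouse neurons, was at 1.68, 2.46 and 1.28 in MoS2_NIR, 0.42, 1.37 and 0.57 in MoS2, and 0.91, 1.49 and 0.28 in Control. The groups overlapped, and replicate 2 was the highest library in each of them. Trim2 was called for MoS2_NIR against MoS2 (limma adjusted p = 0.0406, log2 fold change 0.67, SE 0.27), but the call ended without any 1 of 5 libraries (Control replicate 1, MoS2 replicates 1 or 3, MoS2_NIR replicates 1 or 2), with limma adjusted p between 0.0571 and 0.133, with a pseudocount of 0.1 (0.0608) and after quantile normalization (0.259) or median-ratio scaling (0.537). Against Control it was not called (0.60, limma adjusted p = 0.0546). It was called there without Control replicate 2 (0.0148), MoS2 replicate 2 (0.0347) or MoS2_NIR replicate 3 (0.0408), with a pseudocount of 5 (0.0457), in a fit of the 2 groups alone (0.0463) and with the replicate number as a block (0.00408).

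All 5 tested Rnf genes were called higher in MoS2_NIR than in Control and than in MoS2, beside 63.5% and 61.7% of all tested genes. Rnf225 is in this count, but it passed the limit on low values through MoS2_NIR alone, so its calls add no weight. After median-ratio scaling the sign turned for Rnf8 in both comparisons and for Rnf168 against MoS2. Under that scaling the calls against Control of Rnf168 (0.13, limma adjusted p = 0.21), Rnf183 (0.22, 0.295), Rnf44 (0.35, 0.0991) and Rnf8 were lost. Rnf8 and Rnf168 act in sequence at DNA double-strand breaks: RNF8 binds the phosphorylated scaffold at the break and ubiquitinates chromatin there, and RNF168 reads that mark and ubiquitinates histone H2A. Rnf8 was at 17.36, 20.42 and 18.16 in MoS2_NIR, 11.12, 14.59 and 12.63 in MoS2, and 9.48, 8.51 and 10.17 in Control. Rnf168 was at 13.93, 13.33 and 13.67 in MoS2_NIR, 8.29, 8.62 and 7.66 in MoS2, and 6.19, 5.62 and 4.98 in Control. Both genes showed 3 separate groups. Rnf168 rose to 2.44 times its Control mean (1.15 on the log2 scale, SE 0.10, limma adjusted p = 1.49e-06) and Rnf8 to 1.99 times (0.92, SE 0.12, limma adjusted p = 2.26e-05). With particles alone Rnf168 rose by 0.48 on the log2 scale (limma adjusted p = 0.00503) and Rnf8 by 0.40 (0.0197). The call of Rnf8 ended without Control replicate 2 (0.0592) or MoS2 replicate 2 (0.0811). Both calls were lost after median-ratio scaling (0.20 for Rnf168 and 0.10 for Rnf8, limma adjusted p = 0.102 and 0.606). Quantile normalization kept that of Rnf168 (limma adjusted p = 0.0206) but not that of Rnf8 (0.112). For MoS2_NIR against MoS2, Rnf168 and Rnf8 rose by 0.67 and 0.52 (limma adjusted p = 0.000147 and 0.00212). The median-ratio scaled values were -0.14 for Rnf8 against Control (limma adjusted p = 0.374), and against MoS2 they were -0.24 for Rnf8 and -0.068 for Rnf168 (0.173 and 0.537).

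Rnf44 and Rnf183 rose with light in the values as deposited but were not called for MoS2 against Control. Rnf225 passed the limit on low values through the irradiated libraries alone, so its values are given as a description. Rnf225, named after its values were seen, was at 1.15, 1.4 and 1.45 in MoS2_NIR, 0.11, 0.05 and 0.08 in MoS2, and 0.02, 0.06 and 0.03 in Control. It was near 0 in every library without light, so its ratio of means of 16.7 to MoS2 rests on small values. Rnf44 was at 24.4, 29.16 and 28.17 in MoS2_NIR, 10.65, 10.49 and 17.57 in MoS2, and 11.38, 10.03 and 7.5 in Control, with MoS2 replicate 3 apart from its group. Rnf183, a membrane-bound ligase known from the kidney, was at 3.89, 4.29 and 3.76 in MoS2_NIR, 2.2, 1.99 and 2.27 in MoS2, and 1.97, 1.93 and 0.74 in Control. The irradiated libraries were above all others in both genes, and MoS2 overlapped Control in Rnf44 but not in Rnf183. Against Control their log2 fold changes were 1.42 for Rnf44 and 1.01 for Rnf183 (limma adjusted p = 3.33e-05 and 0.000321). Rnf44 and Rnf183 rose against MoS2 by 1.06 and 0.66 on the log2 scale (limma adjusted p = 0.000494 and 0.00678). After median-ratio scaling both lost that call (0.28 and 0.053, limma adjusted p = 0.191 and 0.819). Quantile normalization kept it for Rnf44 (limma adjusted p = 0.0058) but not for Rnf183 (0.459). With particles alone the log2 fold changes of Rnf44 and Rnf183 were 0.37 and 0.35 (limma adjusted p = 0.139 and 0.142).

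Among the F-box genes of the Fbxo family, 3 of 4 were called higher in each of the 3 comparisons. Beside them stood 63.5% of all tested genes for MoS2_NIR against Control, 61.7% for MoS2_NIR against MoS2 and 30.1% for MoS2 against Control. After median-ratio scaling the sign of Fbxo28 against MoS2 turned. Fbxo45 and Fbxo46 lost that call (0.15 and 0.31, limma adjusted p = 0.209 and 0.0664). Fbxo28, whose human product marks MYC with ubiquitin without destroying it, was at 25.01, 25.13 and 23.24 in MoS2_NIR, 18.0, 15.3 and 15.3 in MoS2, and 11.77, 8.43 and 9.11 in Control. Fbxo45, which pairs with the large ligase MYCBP2 in neurons, was at 13.03, 13.62 and 12.74 in MoS2_NIR, 6.69, 6.2 and 7.02 in MoS2, and 4.6, 4.88 and 3.23 in Control. Fbxo46 was at 4.14, 4.34 and 4.07 in MoS2_NIR, 1.67, 1.95 and 1.63 in MoS2, and 0.92, 1.37 and 0.68 in Control. In all 3 genes every irradiated library was above every MoS2 library, which in turn were above every Control library. The log2 fold changes of Fbxo28, Fbxo45 and Fbxo46 were 1.25, 1.45 and 1.40 for MoS2_NIR against Control (limma adjusted p = 2.98e-06, 1.53e-06 and 2.64e-06). They were 0.57, 0.89 and 0.92 for MoS2_NIR against MoS2 (limma adjusted p = 0.00151, 0.000106 and 0.000117) and 0.68, 0.56 and 0.48 for MoS2 against Control (limma adjusted p = 0.00237, 0.00707 and 0.0166). The median-ratio scaled log2 fold change of Fbxo28 for MoS2_NIR against MoS2 was -0.20 (limma adjusted p = 0.188). Without MoS2 replicate 2 the limma adjusted p of Fbxo46 for MoS2 against Control was 0.0574.

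Fbxo31, whose human product sends cyclin D1 to the proteasome after DNA damage, was the Fbxo gene that fell. It was at 11.09, 12.92 and 13.69 in MoS2_NIR, 13.98, 14.46 and 16.16 in MoS2, and 15.53, 21.25 and 16.42 in Control. The values of MoS2_NIR lay below both other groups, which overlapped each other. Fbxo31 fell to 0.709 times its Control mean (-0.46 on the log2 scale, SE 0.13, limma adjusted p = 0.00594), with -0.23 for each step (limma adjusted p = 0.123 for MoS2_NIR against MoS2 and 0.166 for MoS2 against Control). Both steps of Fbxo31 were called lower after median-ratio scaling (-0.97 and -0.55, limma adjusted p = 7.97e-05 and 0.00575).

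The Fbxl genes Fbxl14 and Fbxl15 rose with light in the values as deposited. Fbxl14, whose product removes the EMT factor SNAIL, was at 24.23, 21.92 and 22.34 in MoS2_NIR, 9.87, 10.6 and 12.76 in MoS2, and 8.47, 9.89 and 6.59 in Control. Fbxl15, whose human product removes the ligase SMURF1, was at 8.64, 8.55 and 7.79 in MoS2_NIR, 2.53, 2.39 and 4.58 in MoS2, and 2.93, 1.75 and 2.82 in Control. In both genes the irradiated libraries were apart from all others and MoS2 overlapped Control. Fbxl14 and Fbxl15 rose against MoS2 by 0.99 and 1.20 on the log2 scale (SE 0.14 and 0.20, limma adjusted p = 9e-05 and 0.000234) and against Control by 1.37 and 1.43 (limma adjusted p = 3.86e-06 and 3.57e-05). For MoS2 against Control, Fbxl14 was called (0.38, limma adjusted p = 0.0469), but not without any 1 of 7 libraries (all except Control replicate 2 and MoS2 replicate 1, limma adjusted p of 0.0596 to 0.161), and without Control replicate 3 its log2 fold change was 0.24. That call also ended with a pseudocount of 5 (0.0532), with no filter on low values (0.056), in a fit of the 2 groups alone (0.0816), with a replicate block (0.0778) and after quantile normalization (0.113) or median-ratio scaling (0.556). Fbxl15 had 0.23 in that comparison (limma adjusted p = 0.343). For MoS2_NIR against MoS2, Fbxl14 and Fbxl15 lost the call after median-ratio scaling (0.22 and 0.51, limma adjusted p = 0.106 and 0.0655). Quantile normalization kept it in both genes (limma adjusted p = 0.000955 and 0.0281).

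Of the 5 Klhl genes 3 were called higher and 2 lower in MoS2_NIR than in Control (60% and 40%), near the 63.5% and 33.9% of all tested genes. Klhl2, an actin-binding receptor that brings WNK kinases to CUL3, was at 16.86, 13.71 and 16.15 in MoS2_NIR, 7.43, 7.52 and 7.48 in MoS2, and 7.11, 6.57 and 5.57 in Control. Klhl18, which acts on Aurora A at mitotic entry in human cells, was at 7.9, 7.63 and 7.61 in MoS2_NIR, 4.5, 4.39 and 4.34 in MoS2, and 3.17, 2.93 and 2.37 in Control. Klhl25, whose human product removes the unphosphorylated translation inhibitor 4E-BP1, was at 10.88, 10.73 and 12.54 in MoS2_NIR, 7.21, 6.54 and 7.27 in MoS2, and 5.29, 3.59 and 3.2 in Control. The 3 groups did not overlap in any of these genes, and the MoS2 values of Klhl2 lay close above the Control values. Against Control the log2 fold changes of Klhl2, Klhl18 and Klhl25 were 1.16, 1.19 and 1.32 (limma adjusted p = 2.89e-06, 1.74e-06 and 7.05e-06), and after median-ratio scaling Klhl2 and Klhl25 lost the call (0.12 and 0.33, limma adjusted p = 0.245 and 0.0502). Against MoS2 they were 0.96, 0.69 and 0.63 (limma adjusted p = 2.86e-05, 0.000189 and 0.00232). Median-ratio scaling put Klhl18 and Klhl25 at -0.0051 and -0.10 (limma adjusted p = 0.962 and 0.544). With particles alone Klhl18 and Klhl25 rose by 0.51 and 0.69 (limma adjusted p = 0.00518 and 0.00483), and Klhl2 was at 0.20 (limma adjusted p = 0.173).

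Klhl30 had the largest decrease of all tested members against Control in the values as deposited. Its values were 2.03, 2.27 and 2.59 in MoS2_NIR, 4.53, 4.7 and 5.63 in MoS2, and 8.41, 9.2 and 6.27 in Control. The groups were separate, with MoS2_NIR lowest and Control highest. Klhl30 fell to 0.289 times its Control mean (-1.43 on the log2 scale, SE 0.15, limma adjusted p = 3.43e-06), with -0.85 for MoS2_NIR against MoS2 (limma adjusted p = 0.000287) and -0.58 for MoS2 against Control (limma adjusted p = 0.00946). Klhl33 was at 0.64, 0.93 and 0.68 in MoS2_NIR, 1.13, 0.84 and 1.62 in MoS2, and 2.36, 1.82 and 1.52 in Control. It fell against Control in MoS2_NIR (-0.72, SE 0.16, limma adjusted p = 0.00107), where the groups did not overlap, while MoS2 overlapped both. The steps of Klhl33 were -0.32 for MoS2_NIR against MoS2 (limma adjusted p = 0.0816) and -0.41 for MoS2 against Control (0.0571). The first was called without MoS2 replicate 2 (0.033) and the second without Control replicate 3 (0.0417) or MoS2 replicate 3 (0.0277), and both were called after median-ratio scaling (limma adjusted p = 0.00372 and 0.00558).

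All 3 Asb genes were called higher in MoS2_NIR than in MoS2, beside 61.7% of all tested genes, and Asb8 also rose with particles alone. Asb8 was at 17.11, 18.35 and 16.14 in MoS2_NIR, 9.27, 8.36 and 8.53 in MoS2, and 5.39, 3.98 and 4.18 in Control. Asb7, which controls spindle dynamics in human cells, was at 5.49, 5.07 and 5.4 in MoS2_NIR, 2.66, 2.41 and 2.78 in MoS2, and 1.73, 2.77 and 1.74 in Control. Asb1 was at 2.54, 3.31 and 2.65 in MoS2_NIR, 2.09, 0.82 and 1.01 in MoS2, and 2.22, 2.02 and 1.41 in Control. The groups of Asb8 were separate, MoS2 and Control overlapped in Asb7 and Asb1, and in Asb1 the MoS2 values of replicates 2 and 3 were below all Control values. Against Control Asb8 rose by 1.73 (SE 0.12, limma adjusted p = 2.9e-07) and Asb7 by 1.05 (SE 0.14, limma adjusted p = 2.46e-05), and Asb1 was at 0.42 (SE 0.20, limma adjusted p = 0.0617), or -0.15 after quantile normalization and -0.37 after median-ratio scaling. The increases against MoS2 were 0.90 for Asb8, 0.81 for Asb7 and 0.77 for Asb1 (limma adjusted p = 4.78e-05, 0.000309 and 0.00396). After median-ratio scaling these 3 calls were lost (0.15, 0.16 and 0.23, limma adjusted p = 0.277, 0.305 and 0.342). Quantile normalization kept the call of Asb8 (limma adjusted p = 0.00754) but not those of Asb7 and Asb1 (0.151 and 0.132). For MoS2 against Control the log2 fold changes of Asb8, Asb7 and Asb1 were 0.82, 0.25 and -0.35 (limma adjusted p = 0.000752, 0.16 and 0.16). Some of these calls turned on single libraries or settings. Asb1 was called against Control without MoS2 replicate 1 (0.0199) or replicate 2 (0.0497), with a pseudocount of 5 (0.0426) and in a fit of the 2 groups alone (0.0267). Asb1 was called lower in MoS2 than in Control without MoS2 replicate 1 (0.0239) and after median-ratio scaling (-0.60, 0.0322). Asb7 was called higher in MoS2 without Control replicate 2 (0.022), and it lost its call for MoS2_NIR against Control after median-ratio scaling (0.18, 0.22).

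**Figure D2:**
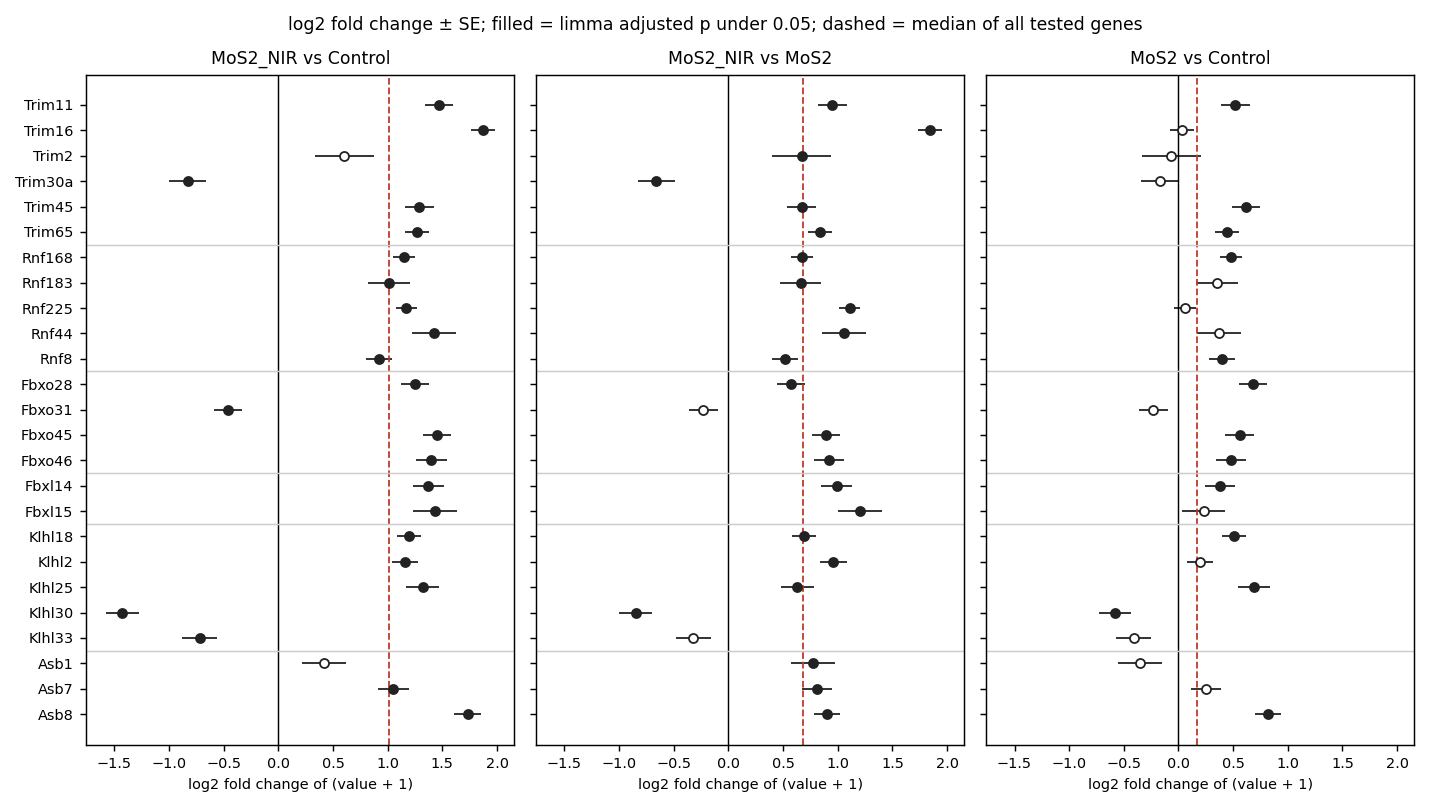
Log2 fold changes of (value + 1) with SE for 25 tested members in the 3 comparisons, grouped by family; filled points had a limma adjusted p under 0.05, and the dashed line is the median of all 1748 tested genes (1.01, 0.68 and 0.17). Trim16 lies farthest right for MoS2_NIR against MoS2 at 1.84, and Klhl30 farthest left at -0.85.

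The 6 members below the limit were Trim36, Trim43c, Trim63, Trim71, Rnf223 and Fbxl22, with values of at most 1.41 in MoS2_NIR, 0.6 in MoS2 and 0.54 in Control. They were not tested. Trim63, the muscle atrophy ligase MuRF1, was listed at 0 in all 3 MoS2_NIR libraries, beside 0.1, 0.17 and 0.14 in MoS2 and 0.27, 0.54 and 0.12 in Control. The other 5 were higher in all MoS2_NIR libraries than in all MoS2 and Control libraries. Fbxl22, whose product acts at the sarcomere of mouse heart muscle, was at 0.51, 0.74 and 0.35 in MoS2_NIR, 0.08, 0.02 and 0.05 in MoS2, and 0.04, 0.11 and 0.03 in Control. Trim36, a microtubule-associated ligase, was at 0.7, 0.64 and 0.71 in MoS2_NIR, 0.26, 0.32 and 0.29 in MoS2, and 0.25, 0.14 and 0.15 in Control. Trim71, an RNA-binding repressor known from stem cells, averaged 0.39 ± 0.123 in MoS2_NIR, 0.15 ± 0.01 in MoS2 and 0.143 ± 0.0351 in Control (SD, n = 3 each). Trim43c, which has near-identical copies between which reads may be split, averaged 0.563 ± 0.0874, 0.13 ± 0.0872 and 0.0567 ± 0.0551 in the same 3 groups. Rnf223 averaged 1.2 ± 0.22 in MoS2_NIR, 0.397 ± 0.216 in MoS2 and 0.17 ± 0.0656 in Control.

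The same limma fit tested whether the signed light step, MoS2_NIR minus MoS2, differed from the signed particle step, MoS2 minus Control. In a gene that fell at both steps, a positive difference means a smaller fall with light. This contrast was added after the values were seen. The signed light step was the larger in 4 of 26 members (Trim16, Asb1, Rnf225 and Klhl2) and the smaller in 0, beside 22.3% and 4.86% of all tested genes. The difference was 1.80 for Trim16 (SE 0.19, limma adjusted p = 0.000228), 1.12 for Asb1 (SE 0.34, limma adjusted p = 0.0341) and 0.76 for Klhl2 (SE 0.20, limma adjusted p = 0.0178). In Asb1 the steps ran in opposite directions, -0.35 with particles and 0.77 with light. Rnf225 is in the count, but its passage through the irradiated libraries alone leaves its test without weight. The call of Trim16 held under median-ratio scaling and quantile normalization (limma adjusted p = 0.0025 and 0.00187). Those of Asb1 (0.117 and 0.105) and Klhl2 (0.204 and 0.0941) did not. The call of Asb1 also ended without any 1 of 5 libraries (Control replicates 1 or 2, MoS2 replicates 2 or 3, MoS2_NIR replicate 2), with a highest limma adjusted p of 0.157, and that of Klhl2 without any 1 MoS2 library (highest 0.0612). Without Control replicate 3 the number of members was 8, and without MoS2 replicate 2 it was 2. In the other 22 members a difference between the steps was not detected.

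**Figure D3:**
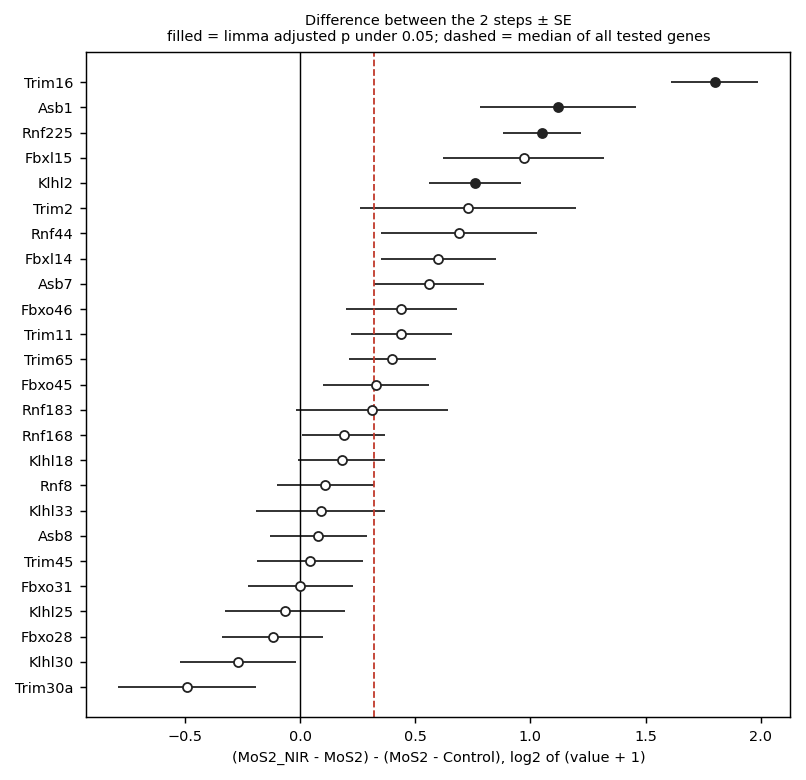
Difference between 2 log2 steps, MoS2_NIR minus MoS2 and MoS2 minus Control, with SE, for 25 tested members; filled points had a limma adjusted p under 0.05 and the dashed line marks the median of all tested genes, 0.32. Trim16 is highest at 1.80 and Trim30a lowest at -0.49.

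How the libraries are scaled to each other bears on the members that rose. The values above are the recovered values without further scaling. In them the median gene of the 1748 was 0.68 higher (log2) in MoS2_NIR than in MoS2. Quantile normalization put this median at 0.22 and median-ratio scaling at 0.025; both rest on assumptions that a selected table may break. For MoS2_NIR against MoS2 the members called were 21 higher and 2 lower as deposited, 11 and 5 after quantile normalization and 2 and 5 after median-ratio scaling, and all genes called were 1078 and 444, 687 and 544, and 415 and 611. The 2 members still higher were Trim16 (log2 fold change 1.10, limma adjusted p = 2.36e-05) and Rnf225, which passed the limit through MoS2_NIR alone, and the 5 lower included Trim30a, Fbxo31, Klhl30 and Klhl33 under both scalings. Against Control 19 members were higher and 5 lower after quantile normalization and 10 and 5 after median-ratio scaling (all genes 986 and 613, and 608 and 634, in place of 1110 and 592), and the 9 that lost the call under median-ratio scaling were Asb7, Fbxl15, Fbxo28, Klhl2, Klhl25, Rnf168, Rnf183, Rnf44 and Rnf8. The 5 lower members again included Trim30a, Fbxo31, Klhl30 and Klhl33. Trim30a and Klhl33 reached the limit on low values only outside MoS2_NIR. In MoS2 against Control the counts were 10 and 3, and 6 and 5 (all genes 406 and 364, and 229 and 542, in place of 526 and 294). Asb8, Fbxo28, Fbxo45, Klhl18, Klhl25 and Trim45 were called higher in MoS2 than in Control under every scaling, and Klhl30 lower.

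**Figure D4:**
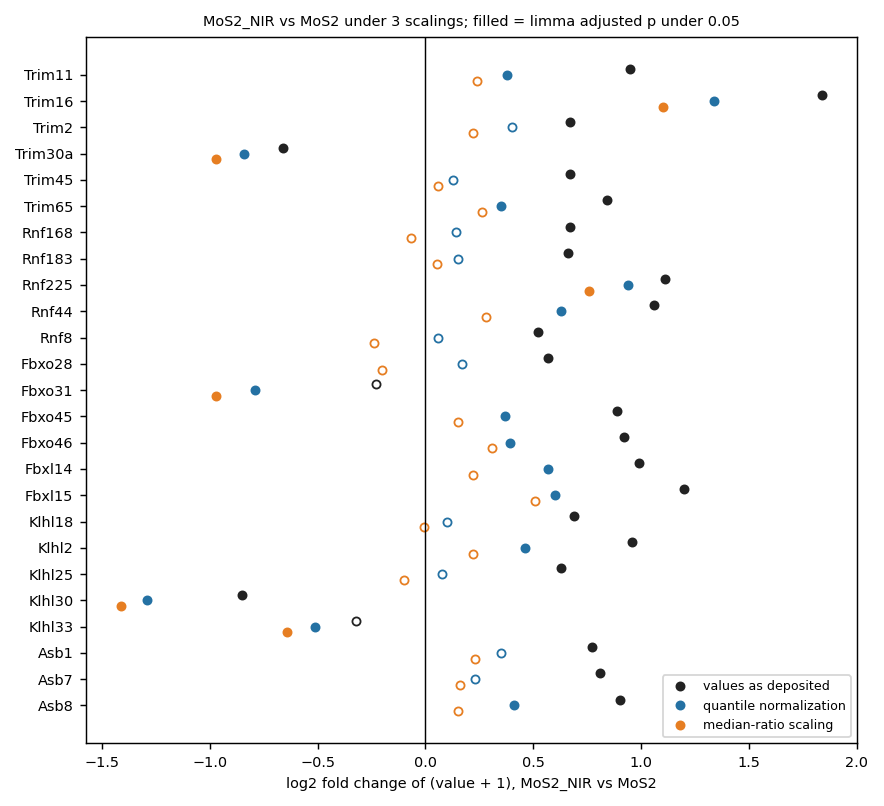
Log2 fold change of (value + 1) for MoS2_NIR against MoS2 in 25 tested members with the values as deposited, after quantile normalization and after median-ratio scaling; filled points had a limma adjusted p under 0.05. Trim16 and Rnf225 stay filled on the right under each scaling, while most other members move toward 0 and the 4 genes on the left move farther from it.

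A further 7 lists of ubiquitin genes were examined beside the families. Of 428 listed genes 52 were in the table and 49 were tested, and 71.4% of these were higher and 24.5% lower in MoS2_NIR than in Control, beside the 63.5% and 33.9% of all tested genes. The list of other RING and RBR ligases had 16 of 18 tested genes higher and 2 lower (median log2 fold change 1.16). Mex3c and Mex3d, RNA-binding RING ligases, had the largest log2 fold changes of (value + 1), 1.74 and 1.73, with means of 20.6 ± 2.13 in MoS2_NIR against 5.48 ± 1.11 in Control and of 24.1 ± 1.04 against 6.55 ± 0.52 (SD, n = 3 each; limma adjusted p = 6.26e-07 and 2.16e-07). Dtx3l and Birc2 fell (-0.89 and -0.38, limma adjusted p = 1.59e-05 and 0.0105). Cullin substrate receptors outside the families had 7 of 9 higher and 2 lower (median 1.00), led by Spsb3 at 1.77 and Kbtbd4 at 1.29, with Btbd2 and Crbn, the cereblon gene, lower at -0.85 and -0.72 (limma adjusted p = 1.18e-06, 1.05e-06, 0.000593 and 4e-05). Deubiquitinases and related proteases, which remove ubiquitin or, like Usp18 and Senp8, a ubiquitin-like protein, had 10 of 13 higher and 3 lower (median 0.99), with Usp21 at 1.53 and Usp38 at 1.31 on one side and Usp43 at -0.83 and Usp18 at -0.80 on the other (limma adjusted p = 4.64e-07, 1.93e-06, 0.000131 and 0.00103).

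The lists of enzymes before and after the ligases held few genes. Of 3 tested activating and conjugating enzymes 0 were higher and 2 lower: Uba7 and Ube2l6, the enzymes that activate and carry the ubiquitin-like protein ISG15, were at 3.69 ± 0.352 in MoS2_NIR against 9.87 ± 0.992 in Control and at 9.56 ± 0.71 against 16 ± 1.66 (SD, n = 3 each; limma adjusted p = 1.99e-05 and 0.000109). Of 4 tested proteasome genes Adrm1, a ubiquitin receptor of the proteasome, rose to 110 ± 10.4 in MoS2_NIR against 32.5 ± 5.26 in Control (log2 fold change 1.73, limma adjusted p = 4.27e-07), and 3 fell, with the immunoproteasome subunits Psmb8 and Psmb9 at -1.48 and -1.42 (limma adjusted p = 5.52e-07 and 8.3e-07). Among the cullin partners 1 of 2 tested genes was higher, Dcun1d2, which promotes the attachment of NEDD8 to cullins (1.64, limma adjusted p = 1.37e-06). HECT ligases had 0 of 27 listed genes in the table. For MoS2_NIR against MoS2, 36 of the 49 genes were higher and 10 lower (73.5% and 20.4%, beside 61.7% and 25.4%), and for MoS2 against Control 14 were higher and 9 lower (28.6% and 18.4%, beside 30.1% and 16.8%). After median-ratio scaling the 49 genes had 21 higher and 16 lower against Control, 13 and 14 against MoS2, and 5 and 14 in MoS2 against Control. Of the genes named from these lists, Kbtbd4 alone lost its call against Control under that scaling (limma adjusted p = 0.0829), and all kept their direction.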

How the data were processed

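The deposited table holds 1 score per gene and library; per the labels, 9 samples of 3 groups were mapped to its columns by title. The authors standardized each score over the 9 libraries (mean 0, SD 1 in 2391 genes). Bowtie 0.12.9, Cufflinks 2.1.1, HTSeq and mm10 appear in the submitters' processing notes without their roles; the strand setting and unit are not given in the sources used here. The organism field names the rat, but all identifiers are of mouse genes, so the available rat reference was not used and no sequence is printed.

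Values with a step of 0.01 were searched whose ln(value + 1), standardized, returns the scores within 3e-09. This recovered 2389 genes, with a largest expected number of chance solutions of 7.9e-07. Values + 1 and their whole-number multiples give the same scores, and the lowest solution was taken. For 9 genes, none of them a member, this solution itself held a common factor. In the other genes it was assumed that the true level is not a multiple. On simulated scores 194 of 194 genes were returned right and 0 of 60 random ones accepted. The random scores were searched over a narrower range than the genes, and the simulated ones left out genes with high values. These checks therefore do not cover the search for genes with high values. The plan's test for normalized values was used: limma 3.58.1 in R 4.3.3, with trend and robust moderation, 6 residual degrees of freedom, pseudocount 1, tested on simulated data. Alternatives were pseudocounts of 0.1 and 5, other filters and scalings, no trend, pairwise fits, the scores themselves, a replicate block and leaving out each library.

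Members and lists were chosen with earlier results of these data known. The genes to name were, for each family and comparison, up to 3 called members in each direction with a mean of at least 2 in the higher group, all members of families with 3 or fewer tested, and up to 2 called genes in each direction of a list, given here for MoS2_NIR against Control; other members are named to account for the families. Counts cover all 32 members; 1 of them enters the counts only and is not reported here by itself.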

Additional observations from a re-analysis of the deposited data

How the results depend on the processing

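The depth of the libraries is unknown, so what a low value allows cannot be stated. Median-ratio scaling gave 10 members higher in MoS2_NIR than in Control, 2 higher and 5 lower than in MoS2, 6 higher and 5 lower in MoS2 than in Control, and 2 with a larger light step. Quantile normalization gave 11 higher and 5 lower against MoS2 and 2 with a larger light step. Under median-ratio scaling the log2 fold change changed sign for Rnf8 against Control (-0.14) and, against MoS2, for Fbxo28 (-0.20), Klhl18 (-0.0051), Klhl25 (-0.10), Rnf168 (-0.068) and Rnf8 (-0.24). The stricter filter, 5 or more in 3 libraries or more, kept 1054 genes and 17 members, so fewer were called: 1033 and 957 genes for MoS2_NIR against Control and MoS2, 279 for the difference between the steps, 3 and 1 members lower in MoS2_NIR than in Control and MoS2, and 2 members with a larger light step. With a pseudocount of 5 there were 9 such members. The cause of the changes under the scalings and pseudocounts was not tested. Of 1914 recomputed values of single members 1797 stayed on their side of the threshold, and 48 of these, called under neither setting, changed sign.

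Leaving out 1 library at a time, the members with a larger light step numbered 2 to 8, and the genes called for that difference 286 to 621. Over all tested genes the deviations of same-numbered libraries from their group means had correlations of -0.0806 to 0.0996. For libraries with different numbers they were -0.16 to 0.0863. Whether same-numbered libraries share a culture or batch was not tested. With the replicate number as a block, 20 members were higher and 5 lower in MoS2_NIR than in Control, 21 and 2 than in MoS2, and 11 and 2 in MoS2 than in Control, while 1707, 1516 and 776 of the 1748 genes were called in either direction. Trim2 gained its call against Control under the block (limma adjusted p = 0.00408) and Fbxl14 lost its call for MoS2 against Control (0.0778).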
